A study of Mus musculus with 12 samples.

Results

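The neutrophil granule and calprotectin genes were 8 genes of the 55418 in the count table: *S100a8*, *S100a9*, *Ngp*, *Camp*, *Ltf*, *Lcn2*, *Mmp8*, and *Retnlg*. They were chosen by name, with their measured differences between morphine and saline mice in view, so these differences are described below without a p value. RNA came from the brainstem (medulla and pons) of 12 outbred CFW mice, with 1 library per mouse. The morphine mice had received morphine sulfate at 15 mg/kg by subcutaneous injection, 2 times per day from P1 to P14. The saline mice had received saline on the same schedule, and the study divided each litter between the treatments. All mice were killed at P15, 16 h after the last injection, when the morphine mice were in spontaneous withdrawal. There were 3 saline males, 3 saline females, 3 morphine females, and 3 morphine males. The comparison of interest was morphine against saline, in both sexes together and in each sex, and no label gives the dam.

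Neutrophils build their granules in steps while they mature in bone marrow. The early azurophil granules hold myeloperoxidase and serine proteases, the later specific granules hold lactoferrin and cathelicidin, and the gelatinase granules come last. S100A8 and S100A9 form calprotectin, a calcium- and zinc-binding dimer that fills the cytosol of neutrophils and is released on activation. Healthy brain parenchyma holds few neutrophils, and most of those in and around the brain lie in vessels, meninges, and skull marrow.

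The promoters of *S100a8*, *S100a9*, and *Ngp*, whose levels varied together over the libraries, are shown first (RefSeq, GRCm38.p6). Each stretch begins 250 bases before the RefSeq start and ends just before the GENCODE gene start where that comes earlier, so the last 93 bases before the RefSeq start of *S100a8* and the last 61 before that of *Ngp* are not printed. C/EBP factors and PU.1 drive granule genes in maturing neutrophils. Capitals mark matches to TTNNGNAA, a C/EBP-type motif searched on both strands, and to GAGGAAGT, a PU.1-type motif searched on both strands. The stretches are *S100a8* at chr3:90668821-90668977 on the plus strand, *S100a9* at chr3:90695722-90695971 on the minus strand, and *Ngp* at chr9:110419558-110419746 on the plus strand, each written 5′ to 3′ on the strand of its gene.
S100a8: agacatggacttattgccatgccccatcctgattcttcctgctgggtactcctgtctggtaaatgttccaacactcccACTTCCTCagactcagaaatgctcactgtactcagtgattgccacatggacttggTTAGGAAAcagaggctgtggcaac
S100a9: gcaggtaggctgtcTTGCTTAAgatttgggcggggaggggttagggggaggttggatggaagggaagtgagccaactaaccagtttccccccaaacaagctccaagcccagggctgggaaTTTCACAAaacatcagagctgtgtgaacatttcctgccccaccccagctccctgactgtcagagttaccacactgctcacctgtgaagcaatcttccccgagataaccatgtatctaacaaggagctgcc
Ngp: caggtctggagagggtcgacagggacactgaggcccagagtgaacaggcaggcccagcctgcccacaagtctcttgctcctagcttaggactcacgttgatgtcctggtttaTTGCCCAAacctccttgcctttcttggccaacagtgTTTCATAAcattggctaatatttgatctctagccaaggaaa

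In the *S100a8* stretch, ACTTCCTC is the PU.1-type match read on the other strand and TTAGGAAA is the C/EBP-type match. All matches in the *S100a9* and *Ngp* stretches are of the C/EBP type, and *Ngp* held another, TTGGGCAA, 11 bases before its RefSeq start and outside the printed stretch. Over the 250 bases before the RefSeq start, 7 of the 8 members held the C/EBP-type motif, all but *Camp*, and 36.8% of 32851 promoters held it. For *Lcn2* all 250 of these bases lie within the GENCODE gene, as do the last 161 for *Camp* and the last 21 for *Ltf*. The PU.1-type motif was present in *S100a8* and *Mmp8* and in 2.44% of promoters. TATAAA on the gene strand was present in *S100a8* alone of the members, 30 bases before its RefSeq start, in the bases not printed, and in 7.59% of promoters. A match describes the letters in the window and is not a measured binding site.

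The members lie in few places in the genome (GENCODE M21, GRCm38). *S100a8* (ENSMUSG00000056054, chromosome 3, 90668978 to 90670035) and *S100a9* (ENSMUSG00000056071, chromosome 3, 90692632 to 90695721) are neighbors 22596 bases apart on opposite strands. On chromosome 9, *Camp* (ENSMUSG00000038357, 109847379 to 109849617) lies 570129 bases from *Ngp* (ENSMUSG00000032484, 110419747 to 110423012), which lies 596258 bases from *Ltf* (ENSMUSG00000032496, 111019271 to 111042767). *Mmp8* (ENSMUSG00000005800) is on the same chromosome at 7558456 to 7568485, *Lcn2* (ENSMUSG00000026822) is on chromosome 2 at 32384633 to 32388252, and *Retnlg* (ENSMUSG00000022651) is on chromosome 16 at 48872621 to 48874496. No exon of a member overlapped an exon of another gene, and no window of 100 bases of a member's transcripts, the read length, was found in another gene.

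The libraries held 27850565 to 48097947 counts, and the members together took 81 to 485 of them. A pair of libraries needs care. Saline male 3 stood apart from its group, with a chi-square per degree of freedom of 199 to 259 against the other saline males, where the 10 other pairs of libraries of 1 group gave 12.5 to 45.6. The library labelled morphine male 6 went against its label: *Xist* was at 380 CPM, where the females had 550 to 979 and the other males 0.399 to 2.65, and *Ddx3y* was at 12.8 CPM, where the other males had 115 to 199 and the females 0.058 to 0.734. Of the other Y-linked genes, *Eif2s3y* was at 19.1, *Kdm5d* at 12.4, and *Uty* at 9.05 CPM in that library. All were below the lowest of the other males (56.2, 30.9, and 24.1 CPM) and above the highest of the females (0.275, 0.314, and 0.183 CPM). The library thus lay between the females and the other males in all of these genes, and the cause was not tested. CPM is the count of a gene as a part of its library, per 1e6 counts after TMM normalization. Neuron and brainstem markers summed to 3086 to 4263 CPM, mostly pan-neuronal genes. Of those with cell bodies in the brainstem, *Tph2* of serotonin neurons was at 19.7 to 41.9 CPM and *Dbh* of noradrenaline neurons at 3.37 to 9.64 CPM.

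The members' levels were low. Per kilobase of exon, *S100a9* was highest at 6.24 ± 3.24 CPM (SD, n = 6) in saline mice, followed by *S100a8* at 3.78 ± 2.00 and *Ngp* at 1.22 ± 0.81. *Retnlg* was at 0.529 ± 0.292, *Camp* at 0.36 ± 0.233, *Lcn2* at 0.174 ± 0.0493, *Ltf* at 0.171 ± 0.0689, and *Mmp8* at 0.0797 ± 0.0879 CPM per kilobase. *S100a9* was above *S100a8*, *S100a8* above *Ngp*, and *Ngp* above *Retnlg* in 6 of 6 saline libraries. From *Retnlg* to *Ltf* the order did not exceed the spread, since each gene was above the next in 4 of 6 saline libraries. Over all 12 libraries, *S100a9* ranked at the 59.0th percentile of the genes kept in the sex-combined fit on this scale, and *Ltf* at the 5.76th. In whole-tissue RNA, fewer cells of a type and less RNA per cell cannot be told apart.

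*S100a8* encodes the smaller calprotectin subunit. In the saline males it was at 2.08, 1.52, and 4.60 CPM, and in the saline females at 2.09, 4.13, and 1.34 CPM. In the morphine females it was at 0.40, 1.33, and 1.03 CPM, and in the morphine males at 0.958, 1.45, and 1.21 CPM. All 3 morphine libraries were below all 3 saline libraries in each sex, while in the sexes together morphine male 5 lay above saline female 6. The fitted log2 fold change was -1.30 (SE 0.36) in the sex-combined fit, -1.45 (SE 0.49) in females, and -1.20 (SE 0.45) in males. Of the members, it alone was past the DE thresholds (unadjusted p under 0.05 and absolute log2 fold change over 0.26) in all 3 fits. The male value shrank to -0.56 without saline male 3 and the female value to -0.89 without saline female 5, and neither was then past the thresholds. The call was also lost in females without morphine female 1 (-1.08) and in males without morphine male 4 (-1.06), morphine male 5 (-1.29), or morphine male 6 (-1.22). As these contrasts helped to choose the members, being past the thresholds or not only describes a member, here and below, and is no test.

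*S100a9* encodes the other calprotectin subunit. In the saline males it was at 3.20, 1.56, and 5.03 CPM, and in the saline females at 2.79, 5.47, and 1.48 CPM. In the morphine females it was at 0.585, 1.86, and 0.997 CPM, and in the morphine males at 1.14, 2.93, and 1.95 CPM. The highest levels were again in saline male 3 and saline female 5, and the groups overlapped in both sexes. The log2 fold change was -1.08 (SE 0.40) in the sex-combined fit and -1.49 (SE 0.51) in females, both past the thresholds, and -0.73 (SE 0.50) in males, which was not. Without saline female 5 the sex-combined value was -0.78 and the female value -0.89, and without saline male 3 the male value was -0.23, none of them past the thresholds. The female call was also lost without morphine female 1 (-1.17).

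**Figure D1:**
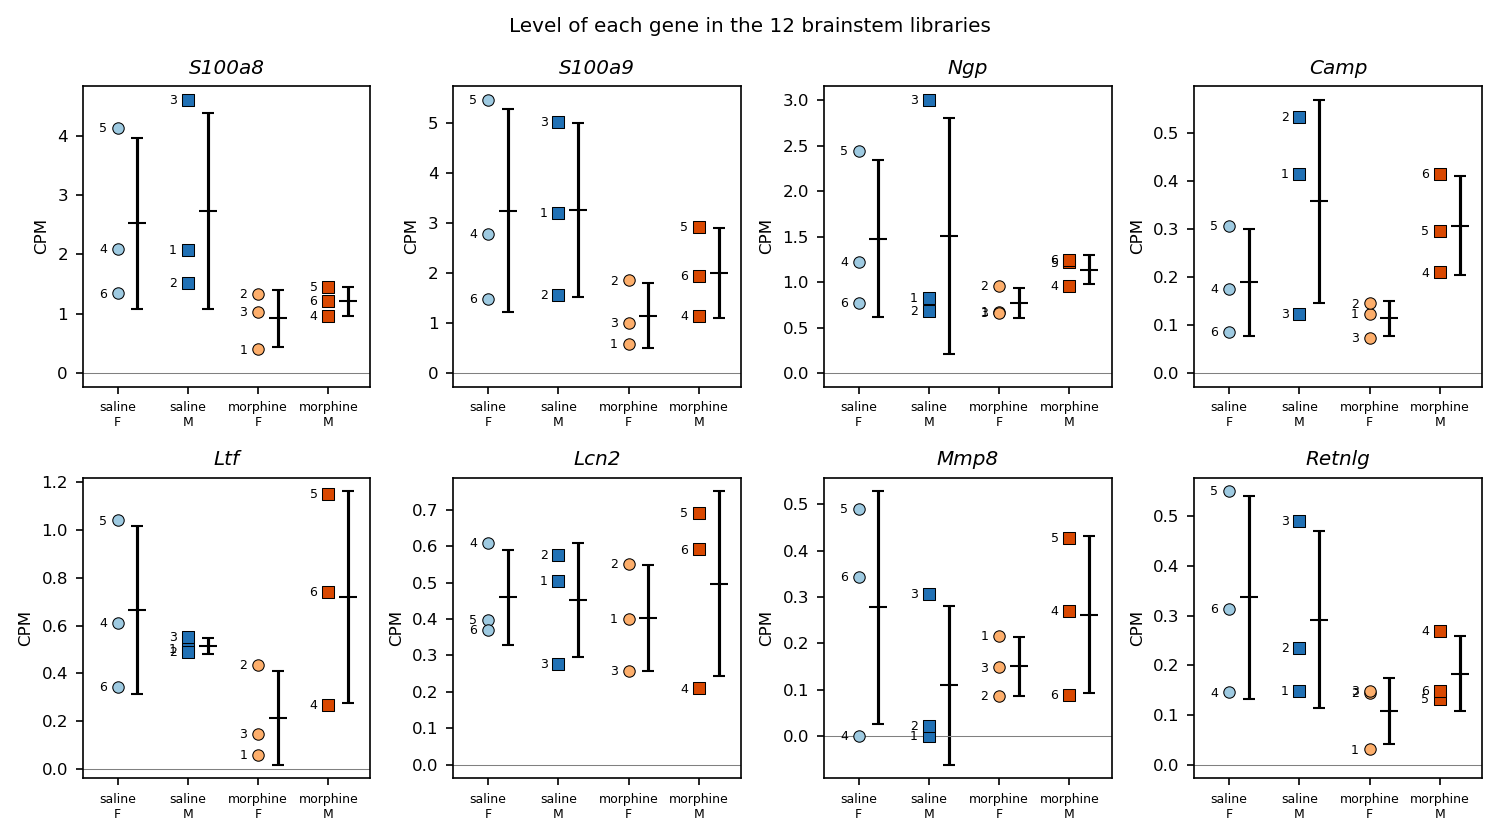
Level of each member in CPM (y axis) in the 12 libraries, by treatment and sex (F, females; M, males). Points are libraries with their mouse numbers, and bars are the mean ± SD of 3 mice. Saline male 3 and saline female 5 are the highest libraries for *S100a8*, *S100a9*, *Ngp*, and *Retnlg*, but not for *Camp* or *Lcn2*.

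*Ngp* and *Camp* encode related cathelicidin-family proteins of the specific granules, neutrophilic granule protein and the antimicrobial peptide CRAMP. *Ngp* was at 0.83, 0.683, and 3.01 CPM in the saline males, at 1.22, 2.45, and 0.771 CPM in the saline females, at 0.677, 0.957, and 0.665 CPM in the morphine females, and at 0.958, 1.22, and 1.24 CPM in the morphine males. Outside saline male 3 and saline female 5, the other 10 libraries lay close together and the treatments overlapped. The log2 fold change was -0.65 (SE 0.38) sex-combined, -0.94 (SE 0.43) in females, and -0.42 (SE 0.58) in males. Without saline male 3 the male value turned to 0.60 (SE 0.30) and the sex-combined value was -0.28. Without saline female 5 the female value was -0.37 and the sex-combined value -0.38.

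*Camp* was at 0.415, 0.534, and 0.123 CPM in the saline males and at 0.21, 0.296, and 0.414 CPM in the morphine males. It was at 0.174, 0.306, and 0.0856 CPM in the saline females and at 0.123, 0.145, and 0.0739 CPM in the morphine females, from 2 to 10 counts per library. Saline male 3, the highest library for *S100a8* and *Ngp*, was the lowest male library for *Camp*. The log2 fold change was -0.41 (SE 0.41) in the sex-combined fit and -0.28 (SE 0.55) in males, and in females, where the gene was under the count filter, -0.69 (SE 0.82) in the fit with no filter. The male value turned to 0.16 without saline male 2, and it was -0.63 without saline male 3, -0.57 without morphine male 6, and -0.94 without both of these. The sex-combined value was -0.22 without saline male 2 or without saline female 5, -0.67 without saline male 3, and -0.82 without both libraries that need care.

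*Ltf* encodes lactoferrin, the iron-binding protein of specific granules, and its pattern was unlike that of calprotectin in males. It was at 0.61, 1.04, and 0.343 CPM in the saline females and at 0.0616, 0.435, and 0.148 CPM in the morphine females. In the saline males it was at 0.504, 0.491, and 0.552 CPM, and in the morphine males at 0.269, 1.15, and 0.739 CPM. Thus, 2 of 3 morphine females lay below all saline females, while 2 of 3 morphine males lay above all saline males. The log2 fold change was -1.58 (SE 0.65) in females, past the thresholds, 0.45 (SE 0.49) in males, and -0.44 (SE 0.51) in the sex-combined fit. The female value was -1.11 without saline female 5, -1.14 without morphine female 1, and -1.39 without morphine female 3, in each case not past the thresholds. Without morphine male 5 the male value was 0.01, and without morphine female 2 the female value was -2.66.

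*Lcn2* encodes lipocalin 2, which binds bacterial siderophores and is also made by reactive astrocytes. It was at 0.504, 0.576, and 0.276 CPM in the saline males, at 0.61, 0.397, and 0.371 CPM in the saline females, at 0.40, 0.551, and 0.259 CPM in the morphine females, and at 0.21, 0.691, and 0.591 CPM in the morphine males. The treatments had nearly the same range. The log2 fold changes of -0.02 (SE 0.32) sex-combined, -0.18 (SE 0.43) in females, and 0.09 (SE 0.50) in males were all smaller than their SEs.

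*Mmp8* encodes neutrophil collagenase and *Retnlg* encodes resistin-like gamma, and both were under the count filter in the sex-combined, female, and male fits. *Mmp8* had 0 counts in saline male 1 and saline female 4, which allows up to 0.0889 and 0.0872 CPM by counting error at 3 counts, and 1 to 16 counts elsewhere. It was at 0.0213 and 0.307 CPM in the other saline males, at 0.489 and 0.343 CPM in the other saline females, at 0.216, 0.087, and 0.148 CPM in the morphine females, and at 0.269, 0.428, and 0.0887 CPM in the morphine males. Saline libraries thus held both the lowest and the highest values. In the fits with no filter the log2 fold change was 0.17 (SE 0.68) sex-combined, -0.88 (SE 0.71) in females, and 1.27 (SE 0.97) in males.

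*Retnlg* was at 0.148, 0.235, and 0.491 CPM in the saline males, at 0.145, 0.55, and 0.314 CPM in the saline females, at 0.0308, 0.145, and 0.148 CPM in the morphine females, and at 0.269, 0.132, and 0.148 CPM in the morphine males. It shared its 2 highest libraries, saline female 5 and saline male 3, with *S100a8*, *S100a9*, and *Ngp*. The log2 fold change with no filter was -1.10 (SE 0.47) sex-combined, -1.62 (SE 0.72) in females, and -0.68 (SE 0.60) in males, at 1 to 18 counts per library.

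**Figure D2:**
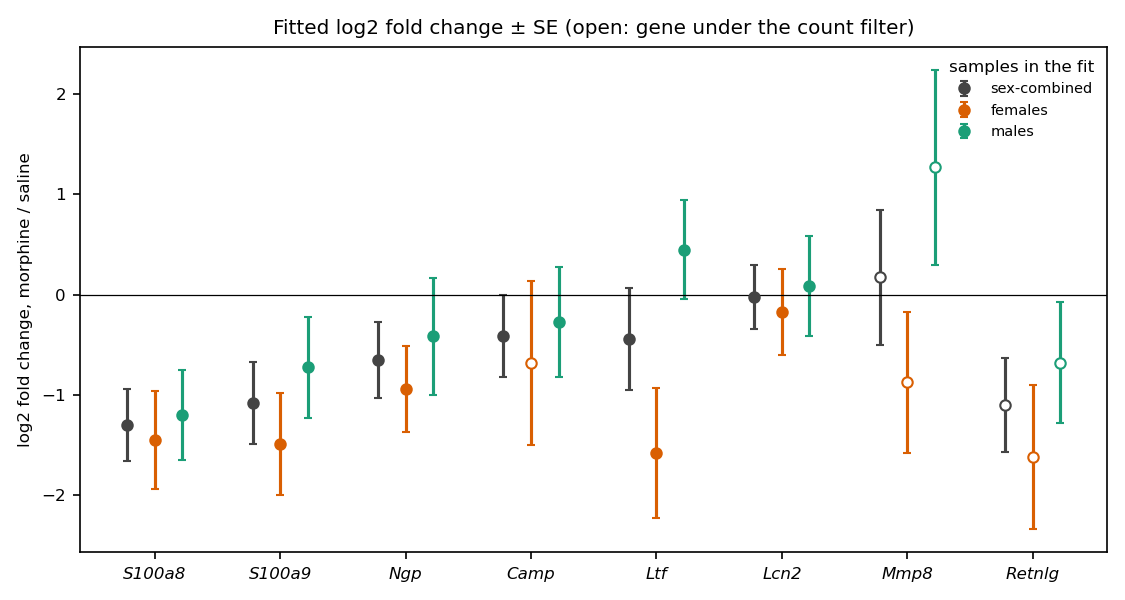
Fitted log2 fold change of morphine over saline (y axis) for each member, with bars of 1 SE, in both sexes together, in females, and in males. Open points are genes under the count filter, taken from the fit with no filter. *S100a8* and *S100a9* lie below 0 in every fit, *Lcn2* lies at 0 within its SE, and *Ltf* and *Mmp8* lie on opposite sides of 0 in females and males.

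Over the whole table, 108 of 18608 genes (0.58%) were past the thresholds and lower in morphine mice in the sex-combined fit, and 113 (0.607%) were higher. Of the 6 members in that fit, 2 were lower, *S100a8* and *S100a9*, and 0 were higher. In females, 3 of the 5 members fitted were lower (*S100a8*, *S100a9*, and *Ltf*) and 0 were higher, against 0.884% and 0.928% of 18109 genes. In males, 1 of 6 was lower (*S100a8*) and 0 were higher, against 1.07% and 1.92% of 18166 genes. Since these contrasts helped to choose the members, nothing is read from those counts. All morphine libraries lay below all saline libraries for 0 of 6 members in the sexes together (0.0269% of genes), 1 of 5 in females (2.76%), and 1 of 6 in males (3.25%), in both sexes *S100a8*.

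After Benjamini-Hochberg adjustment, the quasi-likelihood test of edgeR called 0 genes of the whole table at 0.05 in the sex-combined, female, and male fits, in which 246, 343, and 543 genes had an unadjusted p under 0.05. DESeq2's Wald test gave 0, 3, and 0 genes at the adjusted threshold, and edgeR's exactTest 0, 3, and 1. The female fit with no filter on low counts gave 77. The male fit gave 2141 without saline male 3 and 6573 without both libraries that need care. With both libraries that need care left out, a choice made after seeing the data, *S100a8* alone of the members was past the thresholds in the sex-combined fit (-1.11, SE 0.38), *S100a9* was at -0.99 (SE 0.46), and no member was past them in males.

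The difference between the sexes in the effect of morphine was fitted over the 12 mice. It is the male contrast minus the female contrast, both in view when the members were chosen, so it is described without a p value. *Ltf* was the only 1 of the 8 members past the thresholds, where 2.94% of 19027 genes were. Its log2 fold change was 2.05 (SE 0.89) higher in males than in females. *Mmp8* differed by 2.19 (SE 1.57) in the same direction, and the other members by 0.27 to 0.98. The *Ltf* difference was 2.03 without morphine male 6 and 1.55 without saline female 5, not past the thresholds in either fit. It was also lost without saline male 1 (2.04), saline male 2 (2.01), saline female 4 (2.08), morphine female 1 (1.58), morphine female 3 (1.86), or morphine male 5 (1.55), and stayed past the thresholds in 4 of the 12 fits that left out 1 mouse. It was 3.13 without morphine female 2. Without saline male 3, *Ngp* and *Mmp8* (4.89) were also past the thresholds, both higher in males. Choroid plexus markers had the same signs as *Ltf* and *Mmp8* in each sex. Of the 5 fitted, 5 of 5 were below 0 in females (median log2 fold change -0.73) and 5 of 5 above 0 in males (median 0.88). The median of their differences between the sexes was 1.62, and *Kl* was past the thresholds. *Prg2*, a marker of eosinophils, had these signs too (-1.99 in females and 0.77 in males), and its difference of 2.78 was past the thresholds. Of 4 border macrophage markers, 4 were below 0 in females and 3 above 0 in males. Microglia markers went the other way, with 5 of 7 above 0 in females and 6 of 7 below 0 in males. Of all genes, 51.8% were below 0 in females and 62.4% in males. The part of these markers in the members' differences was not tested.

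Females and males, compared with treatment as a covariate, differed in 1 of the 6 members fitted, *Camp*, where 3.94% of 18608 genes were past the thresholds. *Camp* was at 0.151 ± 0.0843 CPM (SD, n = 6) in females and 0.332 ± 0.151 CPM in males. The female libraries ranged from 0.0739 to 0.306 CPM and the male libraries from 0.123 to 0.534 CPM, so the sexes overlapped. The log2 fold change was -1.14 in females (SE 0.41), with an unadjusted p of 0.0157 and an adjusted p of 0.734 by edgeR's quasi-likelihood test with Benjamini-Hochberg adjustment. It was -1.01 without morphine male 6 and -1.26 without both libraries that need care, past the thresholds in both fits, but not without saline male 2 (-0.96). Choroid plexus markers were also lower in females, 5 of 5 with a median of -1.56 and 4 past the thresholds, and their part in the *Camp* difference was not tested. The other fitted members were 0.13 to 0.56 lower in females on the log2 scale, none past the thresholds.

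The members did not follow 1 order of libraries. Over the 12 libraries, log2 CPM of *S100a8* and *S100a9* had a Pearson r of 0.947 (Spearman rho 0.874), and 0.931 after each treatment's mean was taken out. *Ngp* followed *S100a8* with r = 0.805 and *Retnlg* with r = 0.80. *Ltf* followed *S100a9* with r = 0.849, but *Camp* and *Lcn2* had r of 0.21 and 0.0302 with *S100a8*, and r of 0.549 with each other. *Mmp8* had r of 0.0462 with *S100a8*. These are descriptions over libraries that share their depth and total RNA, and for *Camp*, *Mmp8*, and *Retnlg* they rest on few counts.

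**Figure D3:**
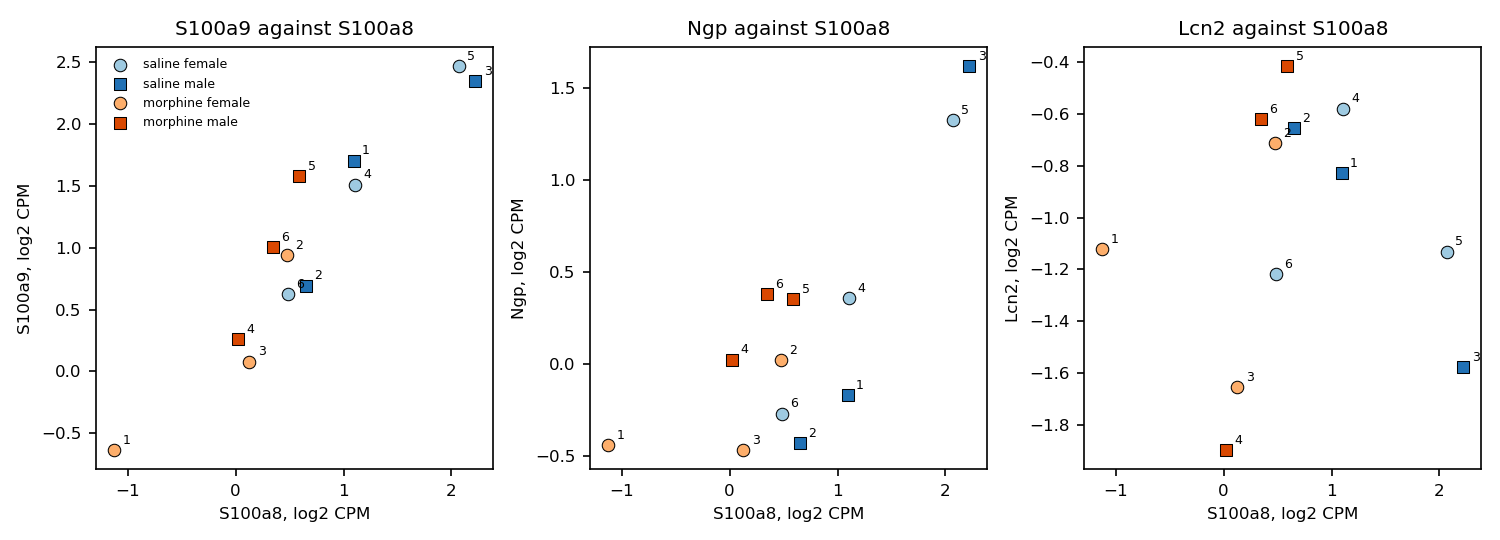
Log2 CPM of *S100a9*, *Ngp*, and *Lcn2* (y axes) against log2 CPM of *S100a8* (x axis) in the 12 libraries, numbered by mouse. *S100a9* follows *S100a8* along 1 line (r = 0.947), *Ngp* is high in the same 2 libraries, and *Lcn2* shows little relation (r = 0.0302).

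The ratio of *S100a9* to *S100a8* counts was 1.24 ± 0.196 (SD, n = 6) in saline mice and 1.44 ± 0.364 in morphine mice, and the groups overlapped. The 2 subunits took 62.5% ± 5.81 of the members' summed counts in saline mice and 51.2% ± 7.00 in morphine mice. Summed over the 8 members, saline mice had 9.20 ± 4.32 CPM, from 5.05 to 14.8, and morphine mice 5.07 ± 2.10 CPM, from 2.49 to 8.29.

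The genes whose levels were most like the members were ranked by Pearson r with the mean centred log2 CPM of the 6 fitted members, over 12 libraries and 18602 other genes. The 10 highest were *Serpinb6c* (r = 0.896), *Chil3* (0.834), *Adam19* (0.803), *Pim1* (0.799), *Adgrg5* (0.793), *Gpr1* (0.784), *Prg2* (0.779), *AC140413.1* (0.765), *Gm15927* (0.763), and *L3hypdh* (0.746). With 18602 genes and only 12 libraries, some unrelated genes also reach a high r, so the ranking is a description. Treatment means were not taken out, so the difference that helped to choose the members enters these r values. *Chil3*, a chitinase-like protein of myeloid cells, and *Prg2*, the eosinophil major basic protein, were in the lists below. *Mmp9* had r = 0.48, at the 98.1th percentile of the ranked genes, while *Pglyrp1* was at the 39.9th and *Itgam* at the 25.6th.

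Of 42 other neutrophil genes, 17 were kept in the sex-combined fit, and 2 were past the thresholds, both lower in morphine mice. Their median log2 fold change was 0.02, where that of all genes was -0.02, and 7 of the 17 were below 0, where 57.4% of all genes were. The median covers only genes over the count filter. *Elane*, *Ly6g*, and *Cxcr2*, described below, were under it, so it says nothing of them. The part of other cells in the levels of the 17 was not tested. *Chil3* was at 0.545 ± 0.373 CPM in saline and 0.219 ± 0.126 CPM in morphine mice (log2 fold change -1.34, SE 0.46), highest in saline male 3. *Mmp9*, the gelatinase of the late granules, was at 3.10 ± 0.587 and 2.41 ± 0.42 CPM (-0.36, SE 0.15). By edgeR's quasi-likelihood test with Benjamini-Hochberg adjustment, both had an adjusted p of 1.00. In females and in males, 0 of 15 fitted genes were past the thresholds, and without both libraries that need care, 0 were in the sex-combined fit.

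Genes of other steps of neutrophil life ranged from 0 counts to over the count filter. The 6 azurophil genes summed to 0.296 to 0.683 CPM per library and none passed the count filter, with *Prtn3* at 0.204 and *Mpo* at 0.099 CPM on average. *Elane*, neutrophil elastase, had 3 counts and *Ly6g*, the surface marker of mature mouse neutrophils, 8 counts over all 12 libraries, and *Mrgpra2b* had none. *Cxcr2*, the chemokine receptor of mature neutrophils, had 42 counts in all. The fitted genes of the mature list were led by *Mxd1* at 26.7 and *Csf3r* at 3.31 CPM, and those of the granule list by *Pglyrp1* at 7.83 and *Itgam* at 7.49 CPM, of which *Itgam* is also a microglial gene. Other genes of these lists were counted as often as the less abundant members: *Csf3r* had 1353 counts over the 12 libraries, *Il1r2* 235, *Fpr2* 149, *Fpr1* 123, *Stfa3* 101, and *Prtn3* 86, where *Camp* had 103, *Retnlg* 94, and *Mmp8* 78, all without scaling for gene length.

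Genes that act around the members gave few calls. Of the granule transcription factors, 0 of 6 fitted genes were past the thresholds in the sex-combined fit (median -0.16), with *Cebpa* at -0.22 (SE 0.14) and *Runx1* at 0.07 (SE 0.17), and *Cebpe*, the factor of the specific granules, had 2 counts in all. Of the neutrophil recruitment genes, 0 of 6 were, with *Cxcl12* at -0.11 (SE 0.11) and *Vcam1* at 0.00 (SE 0.10), and *Cxcl2* had no counts. Among receptors and inhibitors of the member proteins, 1 of 11 was past the thresholds. *Timp1*, an inhibitor of MMP8 and MMP9, was higher in morphine mice (0.50, SE 0.23; adjusted p of 1.00 by edgeR with Benjamini-Hochberg adjustment), while *Timp2* was at 0.02 (SE 0.07) and the lipocalin receptor *Slc22a17* at -0.14 (SE 0.27). Of the other S100 genes, 0 of 8 were past the thresholds, led by *S100b* at -0.09 (SE 0.10) and *S100a16* at -0.11 (SE 0.17). None of the other resistin-family genes passed the filter, with *Retnla* at 0.108 and *Retn* at 0.0593 CPM. In the reactive astrocyte list, 10 of 10 fitted genes were below 0, with a median of -0.17, where 57.4% of all genes were below 0. *Serpina3n* alone was past the thresholds (-0.33, SE 0.15), and *Gfap* was at -0.12 (SE 0.17).

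Markers of other blood and border cells were set beside the members. The 8 red blood cell markers summed to 155 and 163 CPM in saline male 3 and saline female 5, inside the range of 113 to 472 CPM over all libraries, and the highest sum was in saline male 1. None of the 6 fitted was past the thresholds (*Hbb-bs* -0.23, SE 0.30, and *Hbb-bt* -0.20, SE 0.33, sex-combined). However, 6 of 6 were below 0 in the sex-combined fit (median -0.22) and in males (median -0.53), and 3 of 6 in females (median 0.07). Of all genes, 57.4%, 62.4%, and 51.8% were below 0 in these fits, in the same order. Of the monocyte markers, *Ccr2*, the receptor that brings monocytes out of marrow, was lower in morphine mice in the sex-combined fit (-1.12, SE 0.40) and in females (-1.41, SE 0.40), and the 6 markers summed to 6.46 to 14.3 CPM in saline and 5.91 to 10.9 CPM in morphine mice. *F13a1* was at -0.23 (SE 0.20). Of the mast cell, eosinophil, and basophil markers, *Prg2* was lower in morphine females (-1.99, SE 0.75) and at 0.77 (SE 0.69) in males, and *Epx* had 0 to 7 counts.

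The summed level of the mast cell, eosinophil, and basophil markers had r = 0.747 with the members' mean, the highest of the lists. That sum was mostly *Prg2*, at 0.548 CPM on average where *Epx* was at 0.0894, so it restates the likeness of 1 gene. It was followed by meningeal fibroblasts at 0.54 and monocytes at 0.521, while red blood cells were at 0.0801, microglia at 0.0708, and choroid plexus at -0.119. Over the meningeal fibroblast list, 7 of 7 genes were below 0 in the sex-combined fit (median -0.33) and in females (median -0.63), where 57.4% and 51.8% of all genes were. *Dcn* was past the thresholds in both (-0.49 and -0.76), and *Col3a1* (-0.87) and *Slc6a13* (-0.75) in females. The border macrophage gene *Lyve1* was lower in the sex-combined fit (-0.51, SE 0.22), while *Mrc1* was at 0.02 and *Cd163* at -0.04.

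Choroid plexus markers ranged from 9.85 to 839 CPM, and in males *Kl*, *Folr1*, *Clic6*, and *Otx2* were higher in morphine mice, by 0.68 to 1.06 on the log2 scale, while in females all 5 were below 0. Of the cerebellar granule markers, *Gabra6*, *Cbln3*, and *Fat2* were higher in the sex-combined fit, by 0.39 to 0.99. None of the T and NK cell markers passed the filter, none of the 2 fitted B lineage, 2 platelet, 7 microglia, or 4 bone and cartilage markers was past the thresholds in the sex-combined fit, and of the neuron and brainstem markers *Hoxb4* alone was (-0.33). The part of these cell types in the members' levels was not tested.

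**Figure D4:**
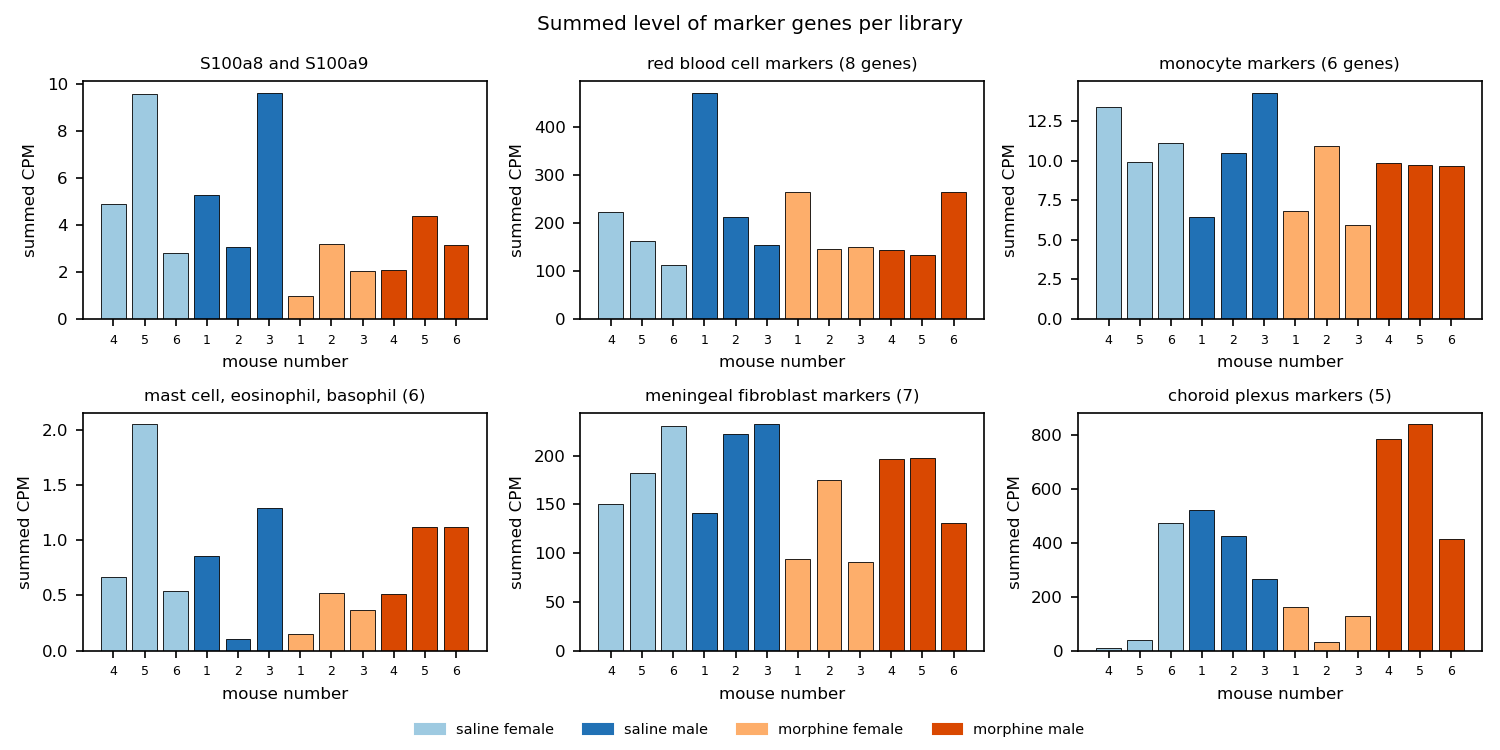
Summed CPM (y axis) of *S100a8* and *S100a9* and of 5 marker lists in each of the 12 libraries, numbered by mouse and colored by treatment and sex. The calprotectin sum is highest in saline female 5 and saline male 3. The red blood cell sums there are 163 and 155 CPM, well below the 472 CPM of saline male 1. Sums of monocyte and meningeal fibroblast markers are highest in saline male 3, at 14.3 and 232 CPM. That of mast cell, eosinophil, and basophil markers is highest in saline female 5, at 2.05 CPM. The choroid plexus sum is highest in morphine male 5.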

How the data were processed

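The authors extracted brainstem RNA, made poly-A libraries, and sequenced 100 bp single-end reads on 1 lane. STAR served for alignment (mm10) and featureCounts for exon counts. The extraction protocol in the labels names spinal cords, but the tissue label and the methods give brainstem. The deposited values are whole-number counts per gene with unequal totals (27850565 to 48097947), so they were treated as raw counts. Strand and multi-mapping settings are not given in the sources used here.

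Groups came from the labels. The quasi-likelihood test of edgeR 4.0.16 (R 4.3.3) was used with TMM and filterByExpr, with sex as a covariate over 12 mice, within each sex, and with a treatment by sex term. SEs are the absolute log2 fold change over the square root of F. Levels are CPM, with a prior count of 2 for logs. DESeq2 1.42.0, exactTest, other scalings, filters, and left-out mice were alternatives. Fits were tested on simulated data. Intervals from counts cover counting error only.

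All 55418 symbols matched GENCODE M21, and 115 stand for more than 1 gene. The members and lists were chosen with earlier results of these data known. Named genes were the 8 members, the 2 most abundant and up to 5 called genes of each list, the 10 genes most like the members, and genes that check sex. *Elane*, *Ly6g*, *Cxcr2*, *Mrgpra2b*, *Cebpe*, *Cxcl2*, *Il1r2*, *Fpr1*, *Fpr2*, *Stfa3*, *Tph2*, and *Dbh* were named after their values were seen.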

Additional observations from a re-analysis of the deposited data

Results flagged for a closer look

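*Ltf* was flagged because its fitted morphine effect was 2.05 higher in males than in females on the log2 scale (SE 0.89), past the thresholds of the interaction fit. The difference is made of the female and male contrasts that were in view when the members were chosen, so it is not an independent test and no p is given. Without the library that went against its sex label the difference was 2.03 and no longer past the thresholds. Dixon's test set no library apart in any of 16 groups (each of the 8 members in the 6 saline and in the 6 morphine libraries), where chance alone would set a library apart in about 1 group in 20. It looks for 1 library apart and can miss 2 that are high together. Saline male 3 and saline female 5 were such a pair for *S100a8* (4.60 and 4.13 CPM), so nothing is concluded about them from this test.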

How the results depend on the processing

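Every alternative kept the sign of the *S100a8* and *S100a9* log2 fold changes in the 3 comparisons of treatment. With no filter on low counts, DE genes numbered 754, 1094, 985, 1665, and 2321 in the sex-combined, female, male, interaction, and sex comparisons. In females 1094 of 34716 genes were past the thresholds, and 5 members and 4 other neutrophil genes were among them. That fit also held *Camp*, *Mmp8*, and *Retnlg*, which were under the count filter in females. The female contrast helped to choose the members, so nothing is read from that member count. With total counts, at least 10 counts in every library, or exactTest, 1 other neutrophil gene was past them in the sex-combined fit, and with at least 10 counts in every library 0 members were in the interaction and sex comparisons. With the contrast taken from the fit of all 12 mice, females had 218 DE genes and 1 other neutrophil gene. In saline mice only, the sexes differed in 448 genes and 0 members. With both libraries that need care left out, chosen after seeing the data, DE genes numbered 380, 7548, 5952, and 3189 in the sex-combined, male, interaction, and sex comparisons, with 1, 0, and 2 members in the first 3 and 0 and 3 other neutrophil genes in the sex-combined and male fits. The cause was not tested.

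Leaving out 1 mouse in turn gave 177 (of 18900 tested) to 458 (of 18911) DE genes sex-combined. In females it gave 208 (of 18623) to 1482 (of 18631), and in males 253 (of 18641) to 5341 (of 18652). For the interaction it gave 290 (of 19424) to 4695 (of 19472), and between the sexes 330 (of 18913) to 3947 (of 18911). Members past the thresholds ranged from 1 to 4, 0 to 6, 0 to 2, 0 to 3, and 0 to 1 in the same order, and other neutrophil genes from 1 to 2, 0 to 2, and 0 to 1 in the first 3. The members that passed the count filter differed between these fits, so nothing is read from the member counts. The highest male, interaction, and sex counts came without saline male 3. Without it the interaction of *Mmp8* was 4.89, and with both libraries left out it was 5.30 and that of *Ngp* 1.42.

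With total counts in place of TMM, 91.3% of DE genes in males were higher in morphine mice against 64.3%, 72.7% against 51.1% sex-combined, and 81.2% against 54.7% for the interaction, and the male median moved from -0.06 to 0.06. The male values of *S100a8* and *S100a9* were then -1.08 and -0.60.

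Replicate numbers are shared by saline and morphine mice, of opposite sex. The correlation of deviations within numbered pairs was -0.356 to 0.18, which gave no sign of pairing. Pairing by litter could not be decided, since each group held 3 mice, each pair was of opposite sex, and no label gives the dam. With the replicate block, 204 genes were DE sex-combined and 483 between the sexes, with 2 and 1 members past the thresholds and 3 other neutrophil genes. No library correlated best with its own number.

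Depth limits the members: the 8 genes took 81 to 485 counts per library, and *Mmp8* 0 to 16.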
